A study of Mus musculus with 12 samples.

Results

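The 58 genes described here act in G2 and in mitosis, the part of the cell cycle in which a cell that has copied its DNA prepares for division and separates its chromosomes. They were taken by name, as the probe sets with a single gene symbol that is on the list. The list was drawn up with earlier results of these data known, so its shares beside all genes are descriptions. The arrays measured 57 of them among 19937 genes; Ccnb1, which encodes cyclin B1, was matched to no probe set with a single symbol and was not analysed here. The members were sorted by role into 11 cyclins and kinases, 4 genes of the chromosomal passenger complex, 5 of the spindle checkpoint, 9 of the kinetochore and centromere, 9 kinesins, 6 spindle assembly genes, 5 cytokinesis genes and 8 genes of condensin and chromosome structure. The phosphatases Cdc25b and Cdc25c were placed with the cyclins and kinases.

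Total RNA of progenitors from mouse bone marrow was hybridised to 12 arrays, 3 in each of 4 groups. LSK, sorted as Lin- Sca1+ c-Kit+, include the blood stem cells and multipotent progenitors. GMP, sorted as lineage-negative cells without Sca1 and with c-Kit, CD34 and FcγR, give rise to granulocytes and macrophages. KO samples came from C57BL/6J mice with Mx-Cre and Lamtor2 f/f, and WT samples from C57BL/6J mice with Mx-Cre and Lamtor2 wt/wt. All mice, controls included, received pIpC by intraperitoneal injection, and cells were sorted 14 days later. Lamtor2 encodes a subunit of the Ragulator complex, which holds nutrient and growth signalling at the lysosome. Mx-Cre is driven by an interferon-responsive promoter that acts in many cell types and is not specific to blood progenitors. The labels number the samples 1 to 3 within a group and do not say whether LSK and GMP samples share mice, so the p-values measure the spread between these samples. Each value is a log2 RMA intensity of a sorted population, and a difference of 1 is a 2-fold change.

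Progress through G2 and mitosis is driven by cyclin A and cyclin B bound to Cdk1, with the Aurora and Polo-like kinases. Motor proteins of the kinesin family and the kinetochores, which sit on the centromeres, attach the chromosomes to the spindle, the spindle checkpoint holds the cell until every chromosome is attached, and condensin compacts the chromosomes. Transcripts of these genes accumulate late in the cell cycle and are low in resting cells, so in a sorted population their level is commonly read beside the share of dividing cells. Many of their promoters carry a cell cycle homology region (CHR), which the MuvB complexes bind, and CCAAT boxes, which NF-Y binds.

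Promoter sequences are shown for 6 members because the members moved together across the groups. Each line gives the 120 bases directly before the annotated start, 5′ to 3′ on the strand of the gene, from RefSeq on GRCm38.p6, and each window lies outside the annotated gene. Capitals mark TTTGAA or its reverse complement TTCAAA, the CHR letters, and CCAAT or its reverse complement ATTGG. Cdk1, the mitotic kinase, at chr10:69352913-69353032 on the minus strand, holds both motifs more than once. Cdc20, the activator that the checkpoint restrains, lies at chr4:118437344-118437463 on the minus strand. Kif11, the motor that separates the spindle poles, lies at chr19:37376262-37376381 on the plus strand. Ckap2, a microtubule-associated protein of the spindle, lies at chr8:22185820-22185939 on the minus strand and is shown because it fell in both LSK and GMP. Ccnb2, which encodes cyclin B2, at chr9:70421555-70421674 on the minus strand, holds 3 CCAAT letters. Plk4, the kinase of centriole duplication, at chr3:40799831-40799950 on the plus strand, holds neither motif in these bases.
Cdk1: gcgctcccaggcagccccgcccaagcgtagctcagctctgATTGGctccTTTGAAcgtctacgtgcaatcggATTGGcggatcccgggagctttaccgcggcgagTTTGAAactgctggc
Cdc20: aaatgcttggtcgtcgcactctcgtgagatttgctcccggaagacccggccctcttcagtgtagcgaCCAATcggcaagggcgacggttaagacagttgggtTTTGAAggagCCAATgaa
Kif11: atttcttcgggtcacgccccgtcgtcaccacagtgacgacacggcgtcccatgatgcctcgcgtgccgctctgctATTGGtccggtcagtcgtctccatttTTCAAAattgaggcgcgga
Ckap2: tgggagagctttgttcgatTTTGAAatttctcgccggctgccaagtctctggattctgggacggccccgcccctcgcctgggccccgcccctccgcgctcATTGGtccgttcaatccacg
Ccnb2: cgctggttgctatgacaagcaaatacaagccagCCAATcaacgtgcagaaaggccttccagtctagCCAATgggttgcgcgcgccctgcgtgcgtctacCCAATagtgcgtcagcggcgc
Plk4: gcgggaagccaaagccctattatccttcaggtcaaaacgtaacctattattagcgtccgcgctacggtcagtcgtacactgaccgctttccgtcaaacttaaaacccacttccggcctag

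In these windows the CHR letters of Cdk1 began 71 and 15 bases before the annotated start, those of Cdc20 18 bases, those of Kif11 19 bases and those of Ckap2 101 bases before it. The CCAAT letters of Ccnb2 began 87, 54 and 21 bases before the start. Windows from 250 bases before to 50 bases after the start were at hand for 46 members and, in all, for 27025 genes. TTTGAA on either strand was found in 32 of the 46 members (69.6%) and in 20.2% of all genes. CCAAT on either strand was found in 32 members (69.6%) and in 41.1% of all genes, and both motifs were found in 26 members (56.5%) and in 8.97% of all genes. In 1 member the letters of the 2 motifs overlapped. These are matches of letters, not measured binding sites.

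**Figure D1:**
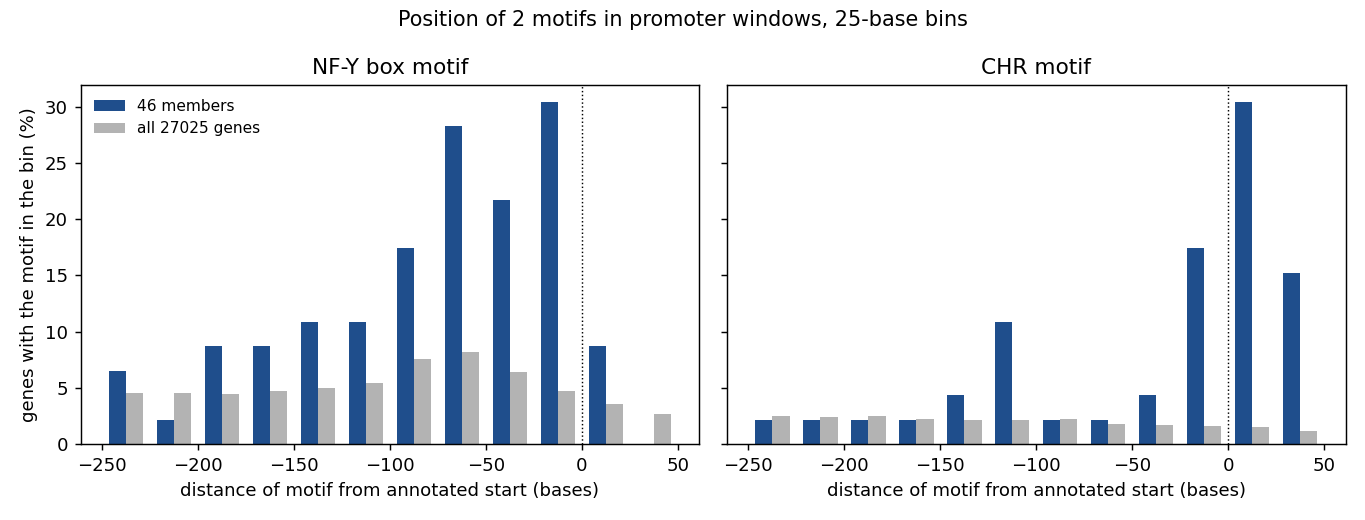
Position of CCAAT (left, NF-Y box) and TTTGAA (right, CHR) on either strand in promoter windows, as the percentage of genes with the motif in each 25-base bin, for 46 members (dark) and all 27025 genes (grey). The x axis is the distance from the annotated start in bases. CHR letters lay in the first 25 bases after the start in 30.4% of members and 1.54% of all genes, and CCAAT letters in the 25 bases before the start in 30.4% of members and 4.77% of all genes.

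The deletion was checked on the arrays first. Lamtor2 read between 4.95 and 5.77 on the 6 KO arrays, and its group means were 10.39 ± 0.09 (SD, n = 3) in WT LSK and 10.74 ± 0.12 in WT GMP. All 9 measured LSK markers were higher in WT LSK than in WT GMP, and all 10 GMP markers, such as Mpo and Elane, were higher in WT GMP. Array medians lay between 5.96 and 6.18, and arrays of a group correlated with each other at a mean of 0.979 to 0.996. KO GMP array 1 stood apart from the others, with the lowest such correlation (0.979) and the lowest array weight (0.19).

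In GMP the loss of Lamtor2 was accompanied by a decrease of nearly the whole list. Of the 57 measured members, 56 fell (98.2%, limma adjusted p under 0.05) and 0 rose, beside 10.3% of all genes that fell in the same comparison and 5.78% that rose; together these are 16.1%. The median change was -1.04 on the log2 scale, a 2.06-fold decrease, and the median over all genes was 0.01. Changes ran from -1.68 for Shcbp1 to -0.10 for Cdc25b, the member that did not pass the test, and 33 members fell by more than 1. The 3 KO arrays lay below the 3 WT arrays for the same 56 members (98.2%), beside 17.6% of all genes. In RNA from bulk sorted cells, fewer dividing cells and less RNA per cell cannot be told apart. The standard errors of single members lay between 0.09 and 0.30.

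Averaged over the 57 members, the WT GMP arrays read 9.16, 9.12 and 9.05, and the KO GMP arrays read 8.02, 7.94 and 8.34. The arrays of both groups were separated by a wide gap, and the KO arrays were more scattered: the median SD of a member was 0.074 in WT GMP and 0.257 in KO GMP, beside 0.104 and 0.177 over all genes. KO GMP array 3 was the highest of its group for 44 members and KO GMP array 2 the lowest for 38. Without KO GMP array 1, 54 members fell.

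Most of the macrophage markers moved the other way in the same GMP arrays. Of 13 such genes, 8 rose and 0 fell in KO GMP, and their mean level went from between 6.74 and 6.85 on the WT arrays to between 8.09 and 8.69 on the KO arrays. C1qc, a complement subunit of macrophages, had the largest change of these genes, 4.83. It read 5.89, 6.21 and 5.89 in WT GMP and 10.66, 10.81 and 11.02 in KO GMP. Timd4, which marks resident macrophages, stayed at the level of the deleted gene on all arrays. The estimates below 0 were those of Cd163 (-0.35, limma adjusted p = 0.0604), Vcam1 (-0.09) and Csf1r (-0.09). Csf1r is also among the GMP markers, and Cd68 and Lyz2 were already bright in WT GMP. The mean of the GMP markers was between 10.79 and 10.93 in WT and lower, between 10.70 and 10.78, in KO. Of these 10 genes, 1 was higher and 2 were lower by limma, with 7 estimates below 0 and 3 above. The arrays of 8 genes did not overlap, and for 6 of these the KO arrays were the lower, beside 17.6% of all genes. KO GMP array 3, with the highest macrophage mean (8.69), also had the highest mean of the G2 and mitosis genes (8.34) in its group. Whether other cells in the sort had a part in the decrease was not tested.

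**Figure D2:**
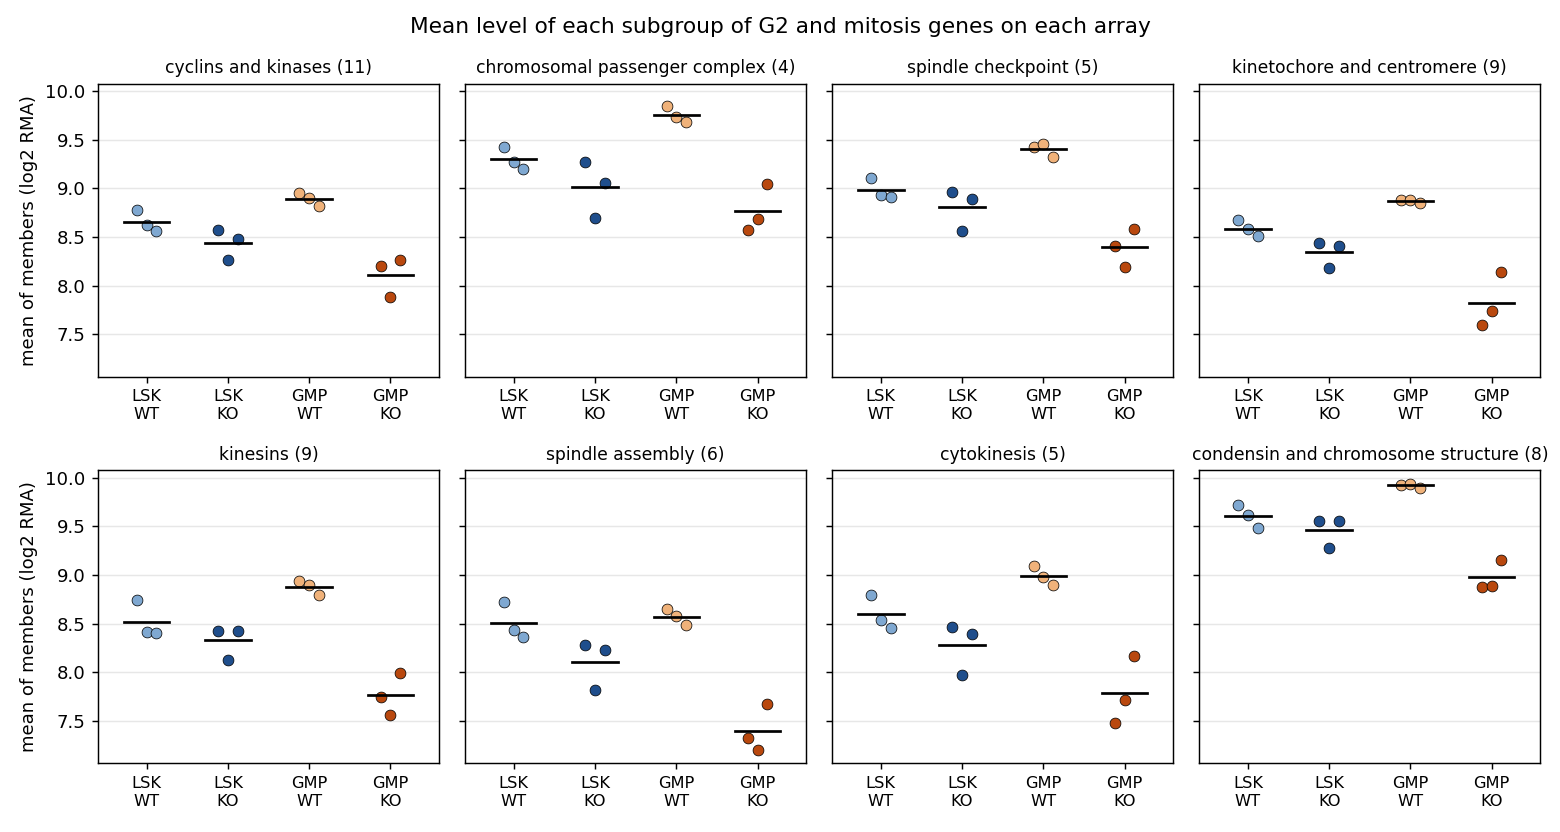
Mean log2 RMA level of each of the 8 subgroups on each array; points are the 3 arrays of a group, bars the group mean, and the number in brackets the measured members. In each panel the 3 KO GMP arrays lie below the 3 WT GMP arrays, while the WT and KO LSK groups lie nearer to each other.

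Among the cyclins and kinases, with the phosphatases Cdc25b and Cdc25c included, 10 of 11 fell in GMP, with a median of -0.84. Cdk1, which drives entry into mitosis, read 10.20, 10.09 and 10.08 in WT GMP and 9.28, 9.16 and 9.58 in KO GMP. It fell by 0.78 (SE 0.11, limma adjusted p = 0.000451), a 1.72-fold decrease. Aurka, the kinase of the centrosomes and spindle poles, read 8.93, 8.86 and 8.86 in WT and 7.49, 7.71 and 7.99 in KO GMP. Its decrease of 1.15 (SE 0.14, adjusted p = 0.000139) was the largest of this subgroup. Ccna2, which encodes cyclin A2, fell by 1.00, and the mitotic kinase Pbk fell by 1.03. Plk1, a kinase that acts from mitotic entry to cytokinesis, fell by 0.92, Plk4 by 0.85, Melk by 0.84 and Nek2, a kinase of centrosome separation, by 0.65.

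The Cdc25 phosphatases remove the inhibitory phosphates from Cdk1, and the members Cdc25b and Cdc25c differed in GMP. Cdc25c read 7.64, 7.27 and 7.14 in WT and 6.96, 6.27 and 6.63 in KO GMP, a decrease of 0.73 (SE 0.20, adjusted p = 0.0217). Cdc25b read 7.02, 7.02 and 6.93 in WT and 7.01, 6.75 and 6.91 in KO GMP. Its arrays overlapped, and its change was -0.10 (SE 0.11, adjusted p = 0.629). Ccnb2 was close to an overlap as well: it read 10.24, 10.15 and 10.34 in WT and 10.02, 9.38 and 9.74 in KO GMP, and fell by 0.53 (adjusted p = 0.0187). The calls of Ccnb2, Cdc25c and Nek2 were each lost in several fits with a single array left out. The limma adjusted p of Ccnb2 was 0.0505 without KO GMP array 2, 0.0553 without WT GMP array 1 and 0.0723 without WT GMP array 3, and 0.163 after repeated quantile normalisation and 0.0835 in a fit of the GMP groups alone. That of Cdc25c was 0.0697 without KO GMP array 2, 0.0998 without WT GMP array 1, 0.0561 without WT GMP array 2 and 0.0529 in a fit of the GMP groups alone. For Nek2 it was 0.0523 without KO GMP array 1, 0.0562 without KO GMP array 2, 0.0861 without WT GMP array 1 and 0.0764 without WT GMP array 2.

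All 4 genes of the chromosomal passenger complex, which corrects faulty attachments between chromosomes and spindle, fell in GMP with a median of -1.03. Cdca8, which encodes borealin, read 9.59 ± 0.12 (SD, n = 3) in WT and 8.32 ± 0.33 in KO GMP and fell by 1.27. Aurkb, the catalytic subunit, fell by 1.08, Birc5, which encodes survivin, by 0.99, and the scaffold Incenp by 0.64. In each of the 4 genes the KO arrays lay below the WT arrays. The call of Incenp was lost without WT GMP array 1 (limma adjusted p = 0.059) or WT GMP array 2 (0.0517) and after repeated quantile normalisation (0.0691).

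The 5 spindle checkpoint genes fell with a median of -1.01. Bub1b, which encodes BubR1, had tight arrays: 9.71, 9.71 and 9.66 in WT and 8.62, 8.49 and 8.79 in KO GMP. Its decrease of 1.06 (SE 0.10) had an adjusted p of 1.75e-05. The checkpoint kinase Ttk read 8.75, 8.81 and 8.65 in WT and 7.68, 7.06 and 7.68 in KO GMP, and fell by 1.26. Cdc20 fell by 1.01, the kinase Bub1 by 0.98, and Mad2l1, which binds Cdc20, by 0.75.

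All 9 genes of the kinetochore and centromere fell, with a median of -1.15. Of the Ndc80 complex, which grips the ends of the microtubules, Spc24 fell by 1.26, Spc25 by 1.24, Nuf2 by 1.15 and Ndc80 by 0.91. Cenpe, a motor at the kinetochore, read 8.87, 8.79 and 8.85 in WT and 7.40, 7.61 and 7.83 in KO GMP, a decrease of 1.22 (SE 0.13, adjusted p = 5.24e-05). Cenpf fell by 1.18, and Cenpk and Cenpi, of the inner kinetochore, by 1.10 and 0.88. Cenpa, the histone variant that marks centromeres, was the nearest to an overlap among those that fell: it read 9.65, 9.39 and 9.35 in WT and 8.67, 8.85 and 9.31 in KO GMP. The gap between its lowest WT and highest KO array was 0.04, and its decrease of 0.52 had an adjusted p of 0.0475. That call was lost without KO GMP array 1, KO GMP array 2 or any of the WT GMP arrays, where the change was between -0.57 and -0.38 and the adjusted p between 0.0715 and 0.175, and after repeated quantile normalisation (0.178). It was also lost with array weights (0.108), in a fit of the GMP groups alone (0.111) and with the replicate number as a fixed block (0.0676).

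The 9 kinesins fell with a median of -1.09, and none by less than 0.93. Kif22, which pushes chromosome arms from the poles, had the smallest p of all members: 8.06, 8.09 and 7.90 in WT and 7.02, 6.95 and 7.03 in KO GMP, a decrease of 1.01 (SE 0.09, adjusted p = 1.27e-05). Kif4, a motor on chromosomes, read 8.59, 8.81 and 8.58 in WT and 6.82, 7.22 and 7.50 in KO GMP and fell by 1.48, a 2.79-fold decrease. The motors of spindle pole separation, Kif11 and Kif15, fell by 1.20 and 1.22. The motors of the central spindle and of cytokinesis, Kif20a, Kif20b and Kif23, fell by 0.96, 1.09 and 1.01. Kif2c, which takes microtubule ends apart, fell by 1.14, and Kif18a, which limits microtubule length, by 0.93.

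The 6 spindle assembly genes had a median of -1.22 and all fell. Hmmr, a spindle pole protein, read 9.04, 8.77 and 8.71 in WT and 7.16, 7.13 and 7.63 in KO GMP; its decrease of 1.53 was a 2.90-fold change. Nusap1, which bundles spindle microtubules, fell by 1.36, the spindle pole protein Aspm by 1.24, Tpx2, the activator of Aurora A, by 1.19, Ckap2 by 1.04 and Dlgap5 by 0.70. The gap between the lowest WT and the highest KO array was 1.08 for Hmmr and 1.04 for Nusap1, so both were far from an overlap.

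The 5 cytokinesis genes fell with a median of -1.17. Shcbp1, a protein of the midbody, had the largest change of all members and also the largest scatter: 8.83, 8.89 and 8.82 in WT and 6.18, 7.49 and 7.82 in KO GMP. It fell by 1.68 (SE 0.30, adjusted p = 0.00205), and array 1 was the lowest of the KO arrays. Anln, which encodes anillin, fell by 1.18, Ect2, the exchange factor that activates RhoA, by 1.17, Prc1, which crosslinks microtubules of the central spindle, by 1.13, and Racgap1, of the centralspindlin complex, by 0.82.

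All 8 genes of condensin and chromosome structure fell, with a median of -0.95. Top2a, the topoisomerase that untangles sister chromatids, read 11.12, 11.08 and 11.07 in WT and 9.78, 9.85 and 10.16 in KO GMP, a decrease of 1.16 (SE 0.12, adjusted p = 2.94e-05). Another, dimmer probe set of Top2a stayed between 5.48 and 5.76 in the means of the 4 groups, in the range of the deleted gene. Mki67, which coats mitotic chromosomes and is the common marker of dividing cells, read 10.68, 10.44 and 10.54 in WT and 9.72, 9.53 and 9.88 in KO GMP, and fell by 0.84. The condensin ATPases Smc2 and Smc4 fell by 1.10 and 0.84. Of the condensin I subunits, Ncapg fell by 1.28, Ncaph by 1.05 and Ncapd2 by 0.58, and Ncapg2 of condensin II fell by 0.69. After repeated quantile normalisation Ncapd2 did not pass (limma adjusted p = 0.0602).

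**Figure D3:**
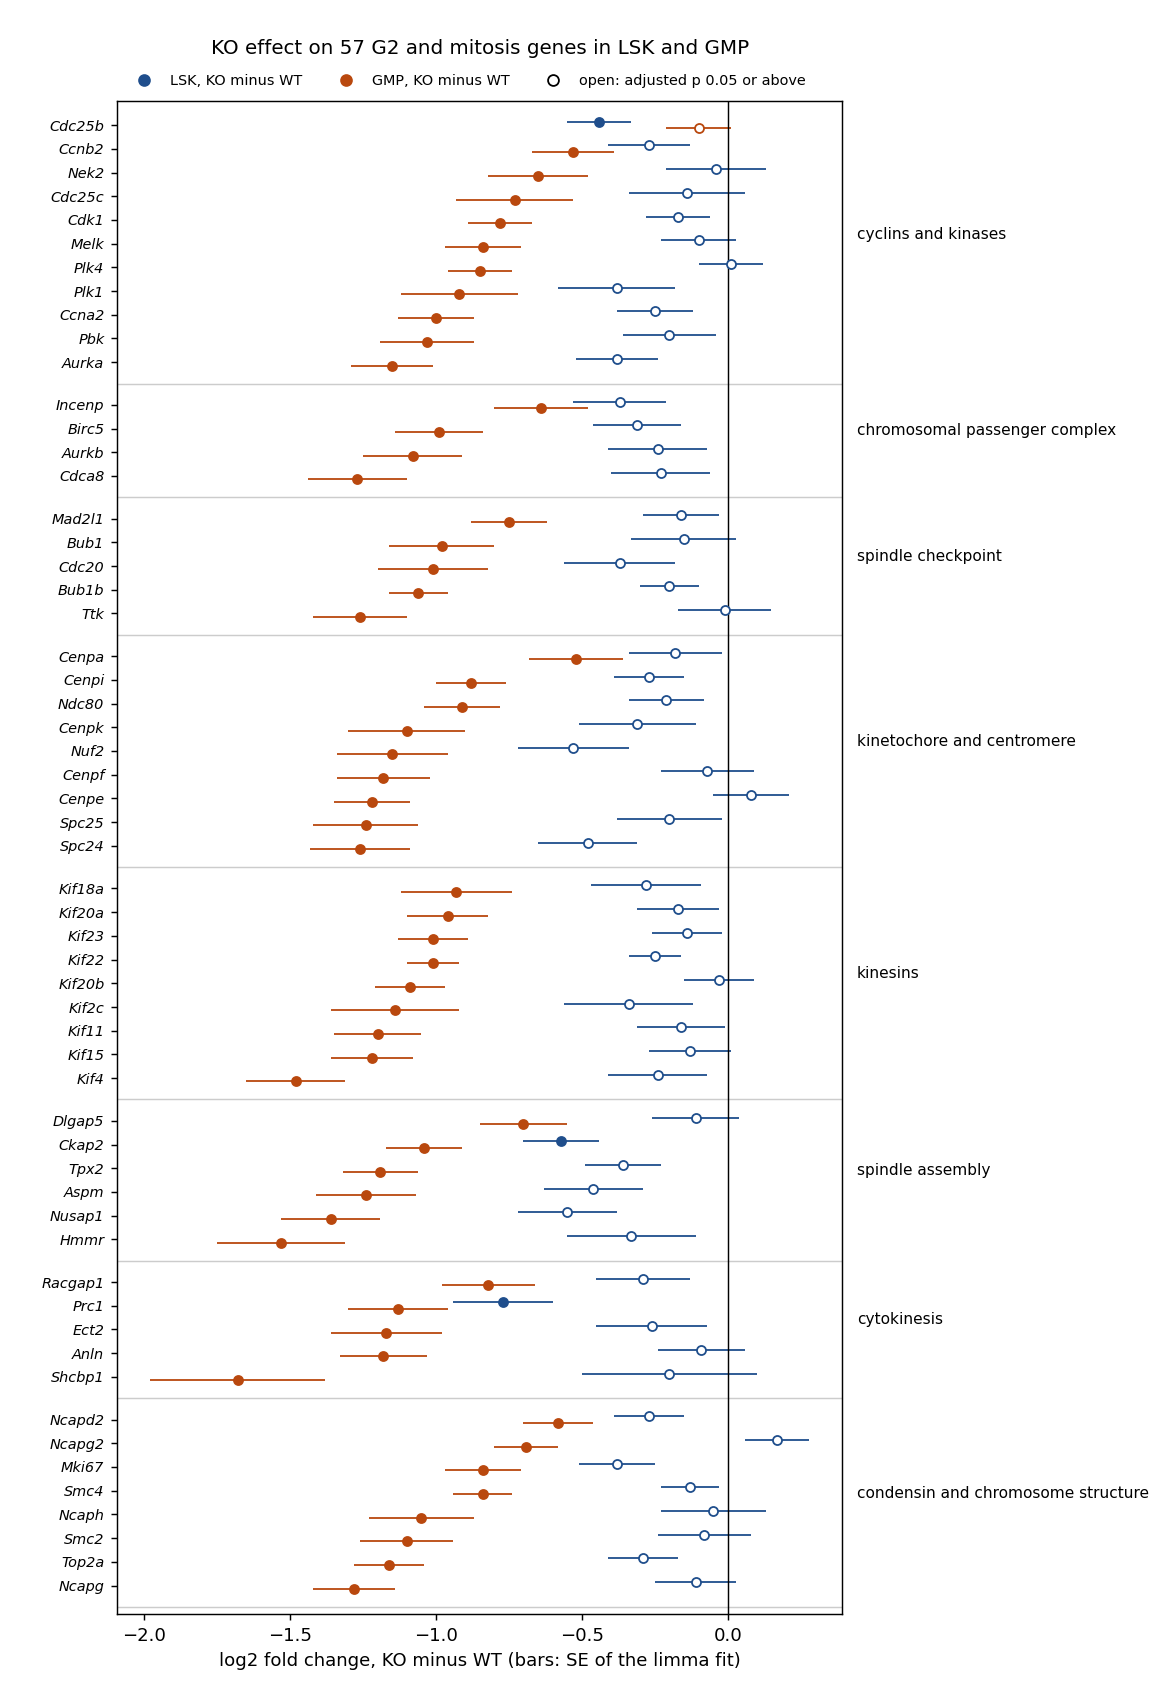
Change of each of the 57 members, KO minus WT on the log2 scale, in LSK (blue) and GMP (orange), by subgroup; bars are the SE of the limma fit and open circles mark an adjusted p of 0.05 or above. The GMP changes centre on -1.04 and the LSK changes on -0.23, and Cdc25b is the member whose LSK change lies below its GMP change.

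In LSK few of the same genes passed the test. Of the 57 members, 3 fell (5.26%) and 0 rose, beside 1.96% of all genes that fell, 2.49% that rose and 4.44% that changed in either direction. The 3 were Prc1, Ckap2 and Cdc25b. The median change was -0.23, a 1.17-fold decrease. Estimates were below 0 for 54 of the 57 members, beside 10668 of all 19937 genes, and ran from -0.77 for Prc1 to 0.17 for Ncapg2. The KO arrays lay below the WT arrays for 20 members (35.1%), beside 13.2% of all genes. Averaged over the members, the WT LSK arrays read 8.96, 8.77 and 8.70 and the KO LSK arrays 8.71, 8.36 and 8.65, so the array means of both groups overlapped.

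Prc1 read 9.37, 9.23 and 9.03 in WT LSK and 8.62, 8.21 and 8.48 in KO LSK, with no overlap. It fell by 0.77 (SE 0.17, limma adjusted p = 0.0202), a 1.71-fold decrease. Ckap2 read 8.44, 8.28 and 8.20 in WT and 7.89, 7.47 and 7.84 in KO LSK, and fell by 0.57 (SE 0.13, adjusted p = 0.0252). Prc1 and Ckap2 were the members that fell in both LSK and GMP. Cdc25b read 7.51, 7.43 and 7.29 in WT and 7.08, 7.06 and 6.77 in KO LSK, and fell by 0.44 (SE 0.11, adjusted p = 0.0347). It was the member that passed the test in LSK and not in GMP, and the difference of its KO effects, LSK minus GMP, was -0.35 (95% interval -0.68 to -0.02, adjusted p = 0.203).

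The 3 LSK calls depended on which arrays were included. With KO LSK array 2 left out the limma count was 0 and the median -0.11, and the count was also 0 without KO LSK array 3, WT LSK array 1 or WT LSK array 2. At an unadjusted p under 0.05 those 4 fits gave 5, 12, 6 and 12 members, beside 14 with all arrays. In those fits Prc1 changed by between -0.79 and -0.66 (adjusted p from 0.0642 to 0.0918), Ckap2 by between -0.63 and -0.44 (0.0546 to 0.111) and Cdc25b by between -0.49 and -0.34 (0.0589 to 0.153). After repeated quantile normalisation the call of Cdc25b was lost as well (-0.42, adjusted p = 0.0526). The count was 3 without KO LSK array 1 or WT LSK array 3. KO LSK array 2 was the lowest of its group for 56 of 57 members, and WT LSK array 1 the highest of its group for 49. KO LSK array 2 also had the highest mean of the macrophage markers in its group, 7.75 beside 6.78 and 7.08 on the other KO arrays and 6.17 to 6.42 in WT LSK. Its mean of the mature neutrophil markers was 9.46 beside 8.07 and 7.66, and WT LSK array 1 had 9.76 beside 8.23 and 7.73. Of the 13 macrophage markers, 4 rose in KO LSK, and 4 of 10 GMP markers rose and 2 of 9 LSK markers fell. The part of these markers in the LSK changes was not tested.

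The other members with the smallest p of their subgroup did not pass the threshold in LSK. Nusap1 was the nearest to it: it read 9.74, 9.26 and 9.17 in WT and 9.04, 8.49 and 8.98 in KO LSK, a difference of -0.55 (adjusted p = 0.0992). The differences were -0.53 for Nuf2, -0.48 for Spc24, -0.38 for Aurka, -0.38 for Mki67, -0.37 for Incenp, -0.37 for Cdc20, -0.34 for Kif2c, -0.31 for Birc5, -0.29 for Racgap1, -0.29 for Top2a, -0.25 for Kif22 and -0.20 for Bub1b. Cdk1 read 9.86, 9.80 and 9.77 in WT and 9.77, 9.53 and 9.60 in KO LSK, a difference of -0.17 (95% interval -0.42 to 0.07). The estimates above 0 were those of Ncapg2 (0.17), Cenpe (0.08) and Plk4 (0.01), and none of these passed the test. By subgroup the LSK median was lowest for the spindle assembly genes (-0.41) and highest for condensin and chromosome structure (-0.12).

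**Figure D4:**
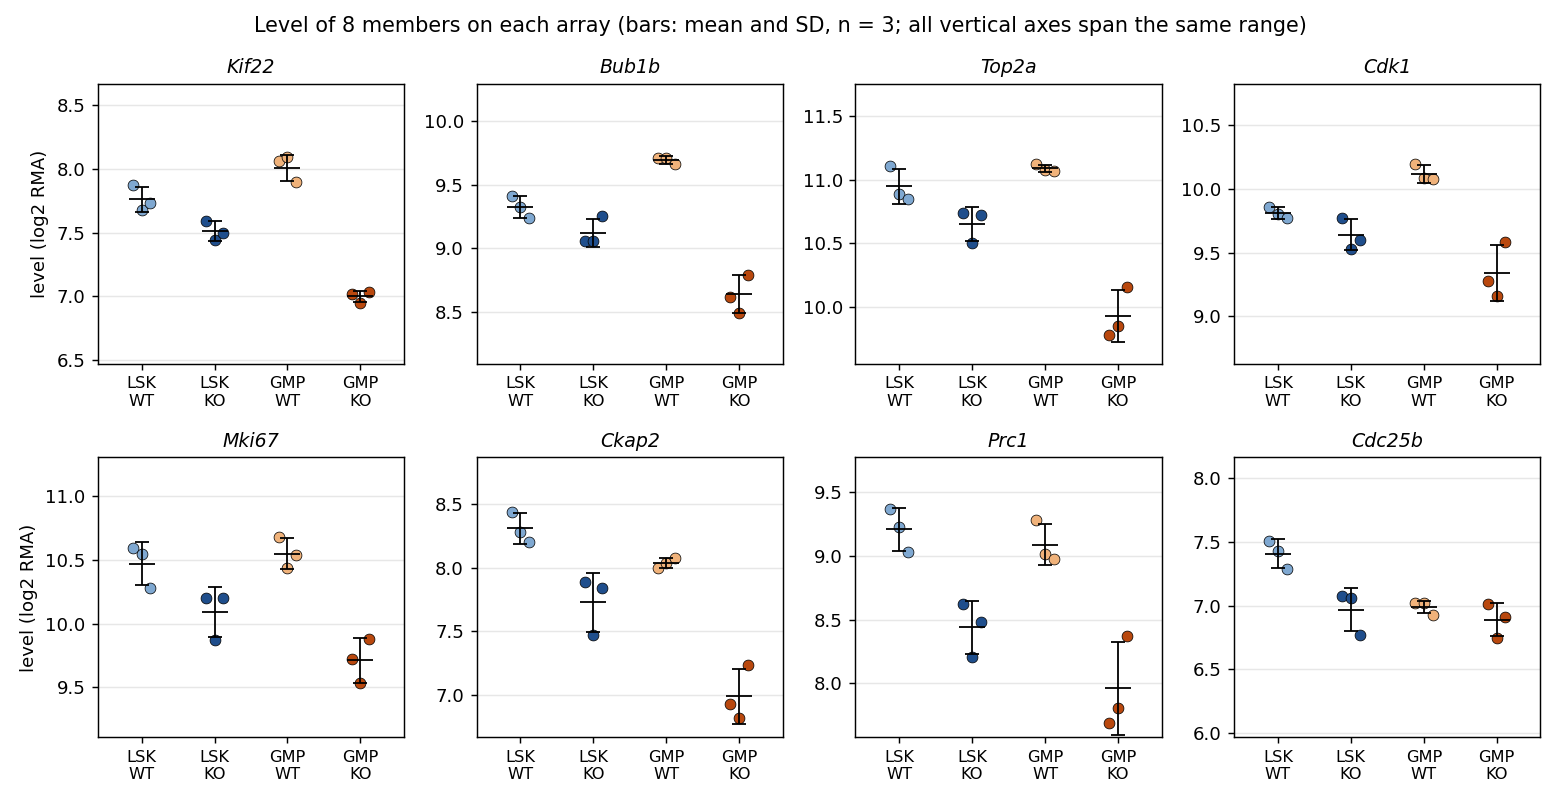
Log2 RMA level of 8 members on each array of the 4 groups; horizontal bars are the mean and whiskers the SD of 3 arrays, and all vertical axes span the same range around the gene's own mean. The KO GMP arrays of Kif22, Bub1b and Top2a lie below the arrays of the other groups, those of Cdk1 and Mki67 lie below WT GMP but overlap KO LSK, Ckap2 and Prc1 are also lower in KO than in WT LSK, and the KO and WT GMP arrays of Cdc25b overlap.

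The KO effect differed between LSK and GMP for 31 of 57 members. The effect in LSK minus that in GMP was tested as an interaction. These 31 (54.4%) passed it with a difference above 0, beside 5.34% of all genes, and 0 with a difference below 0, beside 2.64%. For these members a difference above 0 means that the decrease in GMP was larger than any in LSK. The median difference was 0.79, or 1.73-fold, while the median over all genes was -0.03. All 31 members were among those that fell in GMP. The estimate was above 0 for 56 members, beside 9078 of all 19937 genes, and Cdc25b was the exception.

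The largest interaction was that of Shcbp1, at 1.48 (95% interval 0.57 to 2.40, limma adjusted p = 0.0489), whose wide interval goes with the scatter of its KO GMP arrays. Cenpe had a difference of 1.30 (0.90 to 1.71, adjusted p = 0.00213). Its LSK arrays read 8.28, 7.97 and 8.04 in WT and 8.20, 7.96 and 8.38 in KO, which overlap, while its GMP arrays were apart. Ttk, with 1.25 (0.75 to 1.75), and Kif4, with 1.24 (0.71 to 1.77), followed. By subgroup, 7 of 9 kinesins and 6 of 8 genes of condensin and chromosome structure passed the interaction test, and each of these subgroups had a median difference of 0.87. The counts were 6 of 11 cyclins and kinases, 5 of 9 kinetochore genes, 2 of 5 checkpoint genes, 2 of 6 spindle assembly genes, 2 of 5 cytokinesis genes and 1 of 4 passenger genes, and differences between subgroups were not tested.

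The number of interaction calls moved with single arrays and with the scaling. It was 17 without WT GMP array 2, 19 without WT GMP array 1, and 18 without KO LSK array 1, KO LSK array 3, WT LSK array 2 or WT LSK array 3, and 19 after a repeated quantile normalisation. The median stayed between 0.71 and 0.90 when single arrays were left out.

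Between WT LSK and WT GMP, 41 of 57 members did not pass the test. Of the others, 15 were lower in WT LSK (26.3%) and 1 was higher, beside 9.32% of all genes that were lower and 10.3% that were higher, 19.6% in all. The median difference was -0.35, a 1.28-fold lower level in LSK. The WT LSK arrays lay below the WT GMP arrays for 34 members (59.6%), beside 21.5% of all genes. The lowest were Kif15, with -0.75 (SE 0.14, limma adjusted p = 0.00182), Bub1, with -0.75 (SE 0.18, adjusted p = 0.00777), and Cenpe, with -0.74 (SE 0.13, adjusted p = 0.00115). Bub1 read 8.74, 8.57 and 8.63 in WT LSK and 9.46, 9.40 and 9.34 in WT GMP, with no overlap. Cdc25b was the member higher in WT LSK, by 0.42 (adjusted p = 0.0136); the estimates next to it, Ckap2 with 0.27 and Aspm with 0.24, did not pass the test.

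The count of 16 members that differed between WT LSK and WT GMP was 9 without WT GMP array 1 or WT GMP array 2, 8 without WT LSK array 2 and 10 without WT LSK array 3.

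Between the KO groups, members that passed the test were higher in LSK. Of the 57 members, 28 were higher in KO LSK than in KO GMP (49.1%) and 0 were lower, beside 10.1% of all genes that were higher and 5.79% that were lower, 15.8% in all. The median difference was 0.46, or 1.38-fold, and all 57 estimates were above 0, beside 8524 of all 19937 genes. Cenpf had the largest, 1.09 (SE 0.16, limma adjusted p = 0.000702): it read 8.18, 8.12 and 8.37 in KO LSK and 6.79, 7.01 and 7.59 in KO GMP. Nusap1 followed with 1.02 and Aspm with 1.01, and both had no overlap of arrays. The smallest differences were those of Plk1 (0.01), Incenp (0.01) and Cdc25b (0.07), which did not pass the test. The comparisons between cell types use the same arrays as the KO comparisons and are no further evidence for them. The count of 28 was 18 without KO GMP array 2, 13 without KO LSK array 1, 11 without KO LSK array 3 and 14 after a repeated quantile normalisation.

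With 6 members lower in WT LSK than in WT GMP and higher in KO LSK than in KO GMP, the order of the cell types was turned by test for Bub1b, Ttk, Cenpe, Kif23, Ncapg and Smc4. The share of all genes with both calls was not counted, and the counts of both comparisons moved with single arrays. Bub1b, for example, was lower in WT LSK by 0.37 (adjusted p = 0.0178) and higher in KO LSK by 0.49 (adjusted p = 0.00545).

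**Figure D5:**
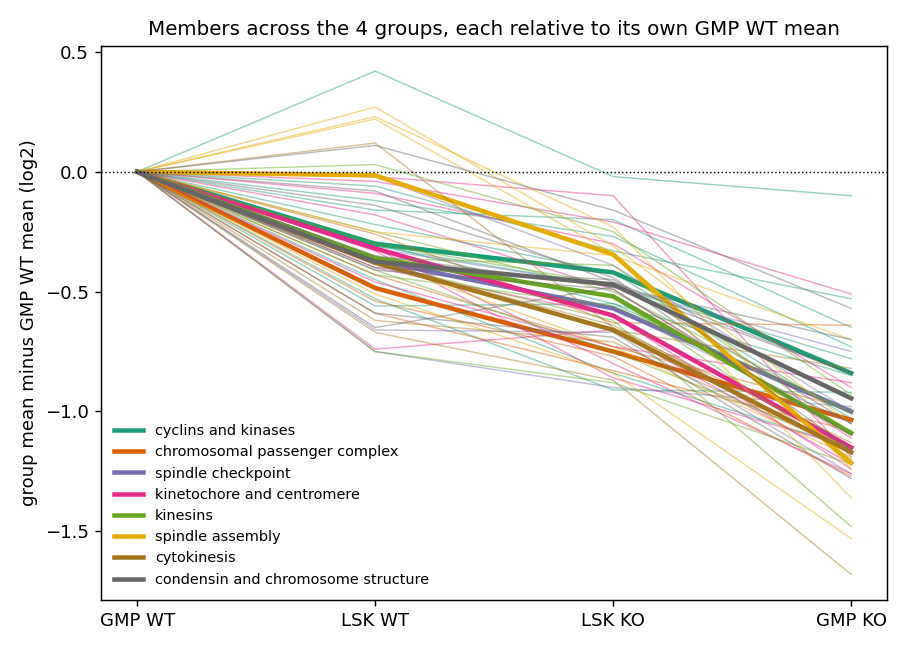
Group means of the members on the log2 scale, each relative to its own WT GMP mean; thin lines join the 4 group means of a gene, thick lines the medians of the 8 subgroups. The order WT GMP, WT LSK, KO LSK, KO GMP from high to low held for the means of 47 of 57 members.

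Over the 4 groups, the means fell in the order WT GMP, WT LSK, KO LSK and KO GMP for 47 members. In 7 members WT LSK was the highest, followed by WT GMP, KO LSK and KO GMP. In the remaining 3 KO LSK stood above WT LSK. KO GMP had the lowest mean in all 57. How many of all genes show each of these orders was not counted. The group means of all members were 9.11 ± 0.06 in WT GMP, 8.81 ± 0.13 in WT LSK, 8.57 ± 0.19 in KO LSK and 8.10 ± 0.21 in KO GMP (SD of 3 array means). The array means of WT LSK and KO LSK overlapped, and the other neighbours in this order did not.

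Other genes of the cell cycle showed the same direction in GMP at a smaller size. Of 123 measured genes on 8 further lists, 81 fell in KO GMP (65.9%) and 42 did not pass the test, with a median of -0.52. In LSK 4 fell (3.25%) and 119 did not pass, with a median of -0.12. The interaction passed the test for 33 (26.8%), all with the LSK change minus the GMP change above 0. Over all genes, 10.3% fell in GMP and 1.96% in LSK, and 5.34% passed the interaction in this direction, so the LSK share of these lists was near that of all genes. The LSK estimates of these 33 lay on both sides of 0. They ran from -0.32 for Parpbp to 0.50 for Anapc15, a subunit of the anaphase promoting complex, and neither passed the test in LSK. Anapc15 and the cohesion, centriole and augmin genes named for LSK estimates above or below 0 were chosen after their values were seen. The lists were drawn up with earlier results of these data known.

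Of 15 transcription factors of the mitotic programme and their partners, 5 fell in GMP and 1 in LSK. Foxm1, an activator of G2 and mitosis genes, read 8.68, 8.64 and 8.58 in WT and 7.32, 7.76 and 7.89 in KO GMP and fell by 0.98 (SE 0.13, limma adjusted p = 0.000291). In LSK its difference was -0.45 (adjusted p = 0.0801). Rbl1, a pocket protein that represses E2F targets, fell by 0.72 in GMP. E2f2, an activating E2F, fell by 0.62 in LSK (adjusted p = 0.00777) and by 0.38 in GMP (adjusted p = 0.0408).

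Of 14 regulators of cyclin-dependent kinases, 10 fell in GMP by limma and 0 changed in LSK, where 3 had an unadjusted p under 0.05. Chek1, the kinase of the DNA damage checkpoint, read 8.87, 8.97 and 9.04 in WT and 7.92, 8.30 and 8.23 in KO GMP and fell by 0.81, and its LSK difference was -0.01. Gtse1 fell by 0.83 and Cks1b, a small subunit of Cdk complexes, by 0.69. Of 17 genes of the anaphase promoting complex and its regulators, which mark cyclin B and securin for destruction, 9 fell in GMP and 1 in LSK. Ube2c, its ubiquitin-conjugating enzyme, fell by 1.08 in GMP, the subunit Cdc23 by 0.61 and the inhibitor Fbxo5 by 0.72. Fbxo5 was the gene of this list that fell in LSK, by 0.45 (adjusted p = 0.0239).

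Of 27 further kinetochore genes, 20 fell in GMP and 1 in LSK. Knstrn, a kinetochore and spindle protein, had the smallest p of these lists: it read 9.16, 9.23 and 9.13 in WT and 7.74, 7.94 and 8.02 in KO GMP and fell by 1.27 (SE 0.11, adjusted p = 5.92e-06). Cenpu fell by 0.95 and Cenpm by 0.84. Of 14 genes of sister chromatid cohesion, 9 fell in GMP by limma and 0 changed in LSK, where the median was 0.04. The 3 with an unadjusted p under 0.05 in LSK had estimates above 0, Smc3 with 0.32, Stag2 with 0.30 and Wapl with 0.24. The separase Espl1 fell by 0.89, the cohesion protector Sgo1 by 0.94 and Pds5b by 0.52. Of 21 further spindle and cytokinesis genes, 19 fell in GMP and 1 in LSK, among them Kif14 by 1.23 in GMP, Parpbp by 1.32 and Arhgap11a by 0.84.

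Both further condensin II subunits fell in GMP, Ncapd3 by 0.47 and Ncaph2 by 0.57. Of 13 genes of centriole duplication and the augmin complex, 7 fell in GMP by limma and 0 changed in LSK, where the median was 0.07. Of the 4 with an unadjusted p under 0.05 in LSK, Haus2 (0.28), Haus4 (0.22) and Haus6 (0.24) had estimates above 0 and Cenpj below it (-0.27). Sass6, which forms the centriole cartwheel, fell by 0.94 in GMP, Cenpj by 0.81 and Cep192 by 0.61. Among the markers of other cell types, 0 of 9 mature neutrophil genes changed in GMP or LSK by limma, and 0 had an unadjusted p under 0.05; their mean spread from 7.82 to 9.92 over the WT GMP arrays and from 7.92 to 9.76 over the KO GMP arrays. Of 6 erythroid genes, Tfrc and Car1 fell in GMP and Tfrc rose in LSK. Of 7 lymphoid genes, Il7r rose in both, by 4.66 in GMP and by 1.91 in LSK, and 1 other gene fell in LSK. Most lymphoid estimates were below 0, 5 of 7 in GMP (median -0.17) and 6 of 7 in LSK (median -0.14). Rag1 and Ebf1 stayed at the level of the deleted gene on all arrays. Of the 9 LSK markers, Flt3 and Kit rose in KO GMP by limma, by 1.26 and 0.43. Tek, which read no higher than the deleted gene on the GMP arrays, fell there by 0.38.

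The change in GMP was set beside the motif letters in the whole windows, from 250 bases before to 50 bases after the start. These windows are longer than the 120 bases shown, so members cannot be sorted from the printed lines alone. In GMP the median change was -1.12 for the 32 members with CHR letters and -0.96 for the 14 members without them. For CCAAT it was -1.08 with and -1.02 without. The difference was not tested.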

How the data were processed

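RNA of 12 sorted samples was measured on Affymetrix arrays. The values are log2 intensities that the authors made with RMA, per the submitters' processing notes; the software version and the genome build were not given in the sources used here. Of 34760 probe sets, 21640 had a single gene symbol, and they covered 19937 genes; for the 954 genes with several sets the brightest was used. No count or depth lies behind an array value, and the number of arrays limits the precision.

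A single fit of 4 group means over 12 arrays was made with limma 3.58.1 in R 4.3.3 (lmFit and eBayes, 8 residual and 5.16 prior degrees of freedom). Each of 5 contrasts was tested two-sided, p-values were adjusted over all 19937 genes by Benjamini and Hochberg's method, and the threshold was 0.05. The script was tested on simulated data. Named were all members past the threshold in a KO contrast or the interaction, the 2 smallest p of each subgroup in each KO contrast, Cdk1, Mki67 and Top2a, the 3 largest differences in each direction between cell types, and up to 3 genes of each further list. The members and all lists, 8 of cell cycle genes beside the members and 6 of markers (LSK, GMP, macrophage, mature neutrophil, erythroid, lymphoid), were chosen with earlier results of these data known. Alternatives were the mean of a gene's probe sets, repeated quantile normalisation, centred arrays, the dimmest 30% left out, trend and robust eBayes, array weights, a fit of 2 groups, replicate blocks and each array left out.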

Additional observations from a re-analysis of the deposited data

Results flagged for a closer look

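The KO effect differed between LSK and GMP by a test of the difference itself (limma interaction, adjusted p under 0.05) in 31 members, and in each the effect in LSK minus that in GMP was above 0 on the log2 scale. Among the cyclins and kinases the difference was 0.75 for Ccna2, 0.61 for Cdk1, 0.77 for Aurka, 0.86 for Plk4, 0.73 for Melk and 0.83 for Pbk. It was 1.04 for Cdca8 of the passenger complex, and 0.85 for Bub1b and 1.25 for Ttk of the checkpoint. At the kinetochore it was 1.30 for Cenpe, 1.11 for Cenpf, 0.61 for Cenpi, 0.70 for Ndc80 and 1.04 for Spc25. Of the kinesins, Kif11 had 1.03, Kif15 had 1.09, Kif20a had 0.79, Kif20b had 1.05, Kif22 had 0.76, Kif23 had 0.87 and Kif4 had 1.24. The spindle assembly genes Tpx2 and Hmmr had 0.83 and 1.21, and the cytokinesis genes Anln and Shcbp1 had 1.08 and 1.48. Of condensin and chromosome structure, Ncapg had 1.18, Ncapg2 had 0.86, Ncaph had 1.00, Smc2 had 1.02, Smc4 had 0.71 and Top2a had 0.87.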

How the results depend on the processing

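The GMP decrease kept its direction for all named members under all alternatives run, with 51 to 56 members called and a median of -1.17 to -0.96 when single arrays were left out. The medians of the other comparisons kept their sign under all alternatives. Repeated quantile normalisation moved the interaction count from 31 to 19 and the count between KO LSK and KO GMP from 28 to 14; with it the GMP median was -0.92. Array weights raised the count between WT LSK and WT GMP from 16 to 30. A fit of the 2 groups compared, with fewer arrays, gave 32 there, 9 between the KO groups and 6 in KO against WT LSK. With single arrays left out the counts ranged from 0 to 3 in LSK, 17 to 38 for the interaction, 8 to 14 between the WT groups and 11 to 40 between the KO groups. The causes were not tested.

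In LSK the estimate of Plk4 turned to -0.04 after quantile normalisation, and that of Ttk to 0.02 with centred arrays and 0.01 with array weights; neither was past the threshold. With single arrays left out, the LSK estimates that crossed 0 ranged from -0.06 to 0.08 for Plk4, -0.28 to 0.06 for Cdc25c, -0.15 to 0.14 for Nek2, -0.18 to 0.02 for Melk, -0.27 to 0.01 for Bub1, -0.09 to 0.12 for Ttk, -0.02 to 0.19 for Cenpe, -0.21 to 0.01 for Kif15, -0.10 to 0.09 for Kif20b, -0.23 to 0.02 for Dlgap5, -0.17 to 0.06 for Anln, -0.21 to 0.09 for Ncaph and -0.17 to 0.04 for Smc2. In GMP, 26 of the repeated member tests were no longer past the threshold, and in LSK 13 were lost and 4 gained.

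Arrays of the same number did not deviate together in all pairs (correlations from -0.18 to 0.28), so the numbers were not taken to pair the samples. A replicate block as a fixed term gave 3 members in LSK, 55 in GMP (Cenpa was lost), 31 for the interaction, 18 between the WT groups and 29 between the KO groups. With 3 arrays a group and SEs of 0.09 to 0.30, the precision limits which LSK changes can pass the test.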
